A study of Mus musculus with 4 samples.

Results

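The 10 genes described here are MHC class II genes of the mouse, the invariant chain gene Cd74 and Ciita. They were chosen by name from a table of raw read counts. All 10 were found among the 27179 genes of the table, and all 10 were among the 11706 genes with enough counts to be tested. The question is how their transcripts differ between plasmacytoid dendritic cells (pDCs) that switched on a Cxcl10 reporter and pDCs under the same stimulation that did not. The BFP-positive group is C57BL/6 pDCs in which blue fluorescent protein, the reporter of the chemokine gene Cxcl10, was on after 24 h of imiquimod at 1 µg/ml, and it has 2 libraries. The BFP-negative group is pDCs of the same strain with the same stimulation and the reporter off, and it also has 2 libraries. All the cells were grown from bone marrow precursors over 8 days in Flt3 ligand, which drives dendritic cell development, and sorted with SiglecH and CD11b. The labels leave unclear whether low or high CD11b was taken and do not place the BFP gate. They also call the BFP-negative population positive for CXCL10, while the series' own design text calls it negative, so only the BFP part was used. Imiquimod is a ligand of TLR7, a receptor for single-stranded RNA, and no unstimulated cells were analysed here.

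MHC class II molecules carry peptides from endocytosed proteins to the surface of antigen-presenting cells, where CD4+ T cells read them. An alpha and a beta chain pair in the endoplasmic reticulum with the invariant chain Cd74, which fills the peptide groove and steers the complex to endosomes. There Cd74 is cut down to the fragment CLIP, H2-DM exchanges CLIP for peptide, and H2-O restrains H2-DM. The transactivator Ciita, which binds no DNA itself, drives these genes through factors already sitting on their promoters. pDCs carry class II at lower levels than conventional dendritic cells and are known to use their own Ciita promoter, one shared with B cells. The counts here are per gene, so the promoter in use was not measured.

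The class II promoters share a module that recruits Ciita, in which an X box, bound by the RFX complex, precedes a Y box, bound by NF-Y. The RefSeq start-site windows used here run from 250 bases before to 50 bases after a gene's start on GRCm38.p6. They cover 7 of the 10 genes, with none for H2-Ab1, Cd74 and Ciita. The stretches below are 68 to 71 bases long and written 5′ to 3′ on the strand of the gene. They come from classical, DM and DO genes, with the X box core and the Y box in capitals. Each was cut out around an X box followed by a Y box, so the shared letters and spacing follow from that choice.
H2-Aa: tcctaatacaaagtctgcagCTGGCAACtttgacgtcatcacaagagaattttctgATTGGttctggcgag
H2-Eb1: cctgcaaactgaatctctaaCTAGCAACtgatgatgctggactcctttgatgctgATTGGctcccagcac
H2-DMb1: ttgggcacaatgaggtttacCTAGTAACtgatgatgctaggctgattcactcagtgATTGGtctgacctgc
H2-DMb2: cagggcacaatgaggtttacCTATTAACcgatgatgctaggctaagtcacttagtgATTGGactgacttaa
H2-Oa: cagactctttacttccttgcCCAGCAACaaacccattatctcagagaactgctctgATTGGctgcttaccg
H2-Ob: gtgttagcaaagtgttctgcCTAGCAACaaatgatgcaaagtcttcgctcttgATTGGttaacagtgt
These lie at chr17:34287857-34287927 on the minus strand for H2-Aa and, on the plus strand, at chr17:34305753-34305822 for H2-Eb1, chr17:34153074-34153144 for H2-DMb1, chr17:34145103-34145173 for H2-DMb2, chr17:34092280-34092350 for H2-Oa and chr17:34238795-34238862 for H2-Ob.

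In these 6 stretches the X box core began 79 to 126 bases before the start site of its RefSeq window, and 25 to 28 bases separated it from the Y box. The Y box letters ATTGG alone, on either strand, were in 37.4% of all 32851 windows, and the X box letters CNNGCAAC alone in 11.2%. The pair in this order with 20 to 30 bases between them, on either strand, was in 0.14% of windows, those of H2-Aa, H2-Eb1, H2-Oa and H2-Ob included. With CNNGNAAC in place of CNNGCAAC the share was 0.414%, and H2-DMb1 joined the 4. H2-DMb2 holds CTATTAAC at that place and matched neither spelling. The 2 windows of H2-DMa held no such pair. The windows of H2-DMa and H2-DMb2 lie inside the spans that these genes have in the count table, so those start sites are not the outer ends of the spans. The letters and the spacing were set with these promoters in view, and a match is a description of the sequence.

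Each library held between 11868254 and 12570117 counts. Levels are given as CPM, counts scaled to a common library size with TMM factors that correct for composition, and a single count came to 0.0789 to 0.0858 CPM. Nothing in the labels says that the libraries come from separate cultures or animals, so p-values measure the spread between these libraries, which may be technical. Cxcl10, whose reporter the sort used, had 149 and 154 counts in the BFP-positive libraries and 3 and 19 in the BFP-negative ones. Over all tested genes, 7.6% were called higher and 3.51% lower in BFP-positive cells by the edgeR quasi-likelihood test at an adjusted p under 0.05. In bulk RNA, fewer cells of a type and less RNA per cell cannot be told apart.

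Of the 10 genes, 7 rose in BFP-positive cells, 3 did not pass the test and none fell, where the background is 7.6% higher and 3.51% lower. The genes that rose were the classical chains H2-Aa, H2-Ab1 and H2-Eb1, the invariant chain Cd74, H2-DMa, H2-Oa and H2-Ob. No gene fell at an unadjusted p under 0.05 in edgeR, DESeq2 or limma-voom. The median log2 fold change, BFP-positive over BFP-negative, was 0.75 over the 10 genes and -0.02 over all genes tested. For 9 of the 10 genes both BFP-positive libraries lay above both BFP-negative ones, which holds for 27.1% of all tested genes. Together the 10 genes took 3.61% and 3.71% of all counts in the BFP-positive libraries, against 1.76% and 2.16% in the BFP-negative ones.

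**Figure D1:**
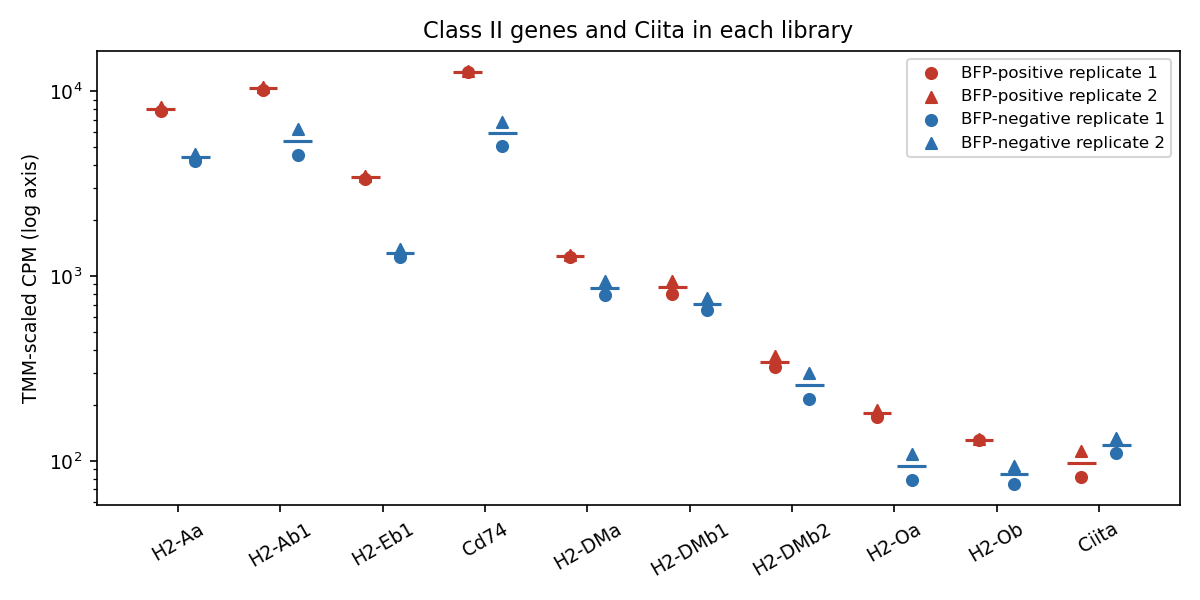
TMM-scaled CPM on a log axis for the 10 genes, with a point for each library (circle replicate 1, triangle replicate 2) and a line at each group's mean. The BFP-positive points lie above the BFP-negative ones for every gene but Ciita, whose points overlap at 81.5 and 112 CPM against 111 and 133 CPM.

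Among the classical chains, H2-Eb1, which encodes the beta chain of the I-E molecule, had the largest fold of the 10 genes. H2-Eb1 (Entrez gene 14969, chromosome 17, 34305867 to 34316674 on GRCm38, introns included) was at 3363 and 3493 CPM in BFP-positive libraries, against 1272 and 1395 CPM in BFP-negative ones. The groups stood far apart, 2.57-fold, and each pair of libraries was close. H2-Eb1 thus had a log2 fold change of 1.36, SE 0.10 (edgeR adjusted p = 3.41e-05). C57BL/6 mice do not make the I-E alpha chain that would pair with it, and the pseudogene in its place, H2-Ea-ps, had 0 and 10 counts in BFP-positive libraries and no count in the BFP-negative ones. A count of 0 allows up to 3.

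H2-Aa and H2-Ab1 encode the alpha and beta chains of I-A, the class II molecule that this strain displays. H2-Aa (Entrez gene 14960, chromosome 17, 34282744 to 34287823) was at 7781 and 8253 CPM in BFP-positive libraries, against 4207 and 4578 CPM in BFP-negative ones. The groups did not overlap (log2 fold change 0.87, SE 0.10, edgeR adjusted p = 0.000379). H2-Ab1 (Entrez gene 14961, chromosome 17, 34263227 to 34269418) was at 10193 and 10603 CPM in BFP-positive libraries, against 4545 and 6232 CPM in BFP-negative ones. The BFP-negative libraries of H2-Ab1 were the wider pair, yet both stayed well below the BFP-positive ones. H2-Ab1 rose by 0.95 on the log2 scale, SE 0.14 (edgeR adjusted p = 0.00166).

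Cd74, the invariant chain that shields the groove until the endosome, was the most abundant of the 10 by CPM. Cd74 (Entrez gene 16149, chromosome 18, 60803849 to 60812652) was at 12668 and 12806 CPM in BFP-positive libraries, against 5026 and 6829 CPM in BFP-negative ones. The BFP-positive libraries nearly coincided and the BFP-negative ones differed 1.36-fold. Cd74 rose by 1.10 on the log2 scale, SE 0.13 (edgeR adjusted p = 0.000561).

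H2-DM is the peptide exchanger, with the alpha chain H2-DMa and a beta chain from either of the neighbouring genes H2-DMb1 and H2-DMb2. H2-DMa (Entrez gene 14998, chromosome 17, 34119693 to 34139101) was at 1269 and 1301 CPM in BFP-positive libraries, against 793 and 937 CPM in BFP-negative ones. Its log2 fold change of 0.57, SE 0.12, passed with an edgeR adjusted p of 0.0119, but the call was lost without BFP-positive replicate 1 or 2 (adjusted p = 0.0546 and 0.0743). It held when a BFP-negative library was left out, at 0.0349 for replicate 1 and 0.00198 for replicate 2.

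The beta chain genes did not pass. H2-DMb1 (Entrez gene 14999, chromosome 17, 34153191 to 34160229) was at 798 and 943 CPM in BFP-positive libraries, against 655 and 762 CPM in BFP-negative ones (log2 fold change 0.30, SE 0.13, edgeR adjusted p = 0.191). H2-DMb2 (Entrez gene 15000, chromosome 17, 34143229 to 34151553) was at 320.0 and 368 CPM in BFP-positive libraries, against 216 and 297 CPM in BFP-negative ones (log2 fold change 0.42, SE 0.16, edgeR adjusted p = 0.136). For both genes the groups did not overlap, but the higher BFP-negative library lay close to the lower BFP-positive one. H2-DMb2 passed without BFP-negative replicate 2, with a log2 fold change of 0.69 and an edgeR adjusted p of 0.00946. Without BFP-negative replicate 1 its log2 fold change was 0.22, and without BFP-positive replicate 2 that of H2-DMb1 was 0.17. The H2-DMb1 and H2-DMb2 transcripts share 22.7% and 21.2% of their 50-base stretches, so reads of the pair may have been split or lost.

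H2-Oa and H2-Ob encode the chains of H2-O, the inhibitor of H2-DM, which is otherwise best known from B cells. H2-Oa (Entrez gene 15001, chromosome 17, 34092379 to 34095234) was at 173 and 188 CPM in BFP-positive libraries, against 78.3 and 109 CPM in BFP-negative ones. H2-Oa rose by 0.95 on the log2 scale, SE 0.18 (edgeR adjusted p = 0.00751), where the I-A chains rose by 0.87 and 0.95. An antisense gene, BC051537, covers 22.8% of the H2-Oa exon bases, and the sources used here do not give the strand setting. BC051537 itself had 24 and 14 counts in BFP-positive and 14 and 5 in BFP-negative libraries, where H2-Oa had 975 to 2290. H2-Ob (Entrez gene 15002, chromosome 17, 34238905 to 34245908) was at 129.9 and 130.5 CPM in BFP-positive libraries, against 74.8 and 94.2 CPM in BFP-negative ones. Its log2 fold change of 0.62, SE 0.16, was the weakest call (edgeR adjusted p = 0.0371). It was lost without BFP-positive replicate 1, BFP-positive replicate 2 or BFP-negative replicate 1 (adjusted p = 0.115, 0.121 and 0.136) and held without BFP-negative replicate 2 (adjusted p = 0.0110).

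Ciita, the transactivator, was the only one of the 10 with a lower mean in BFP-positive cells, and it did not pass the test. Ciita (Entrez gene 12265, chromosome 16, 10480014 to 10531064) was at 81.5 and 112 CPM in BFP-positive libraries, against 111 and 133 CPM in BFP-negative ones. The groups overlapped, with BFP-positive replicate 2 above BFP-negative replicate 1. Ciita's log2 fold change was -0.33, SE 0.19 (edgeR adjusted p = 0.324). Leaving out 1 library moved it between -0.58 and -0.12 on the log2 scale.

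**Figure D2:**
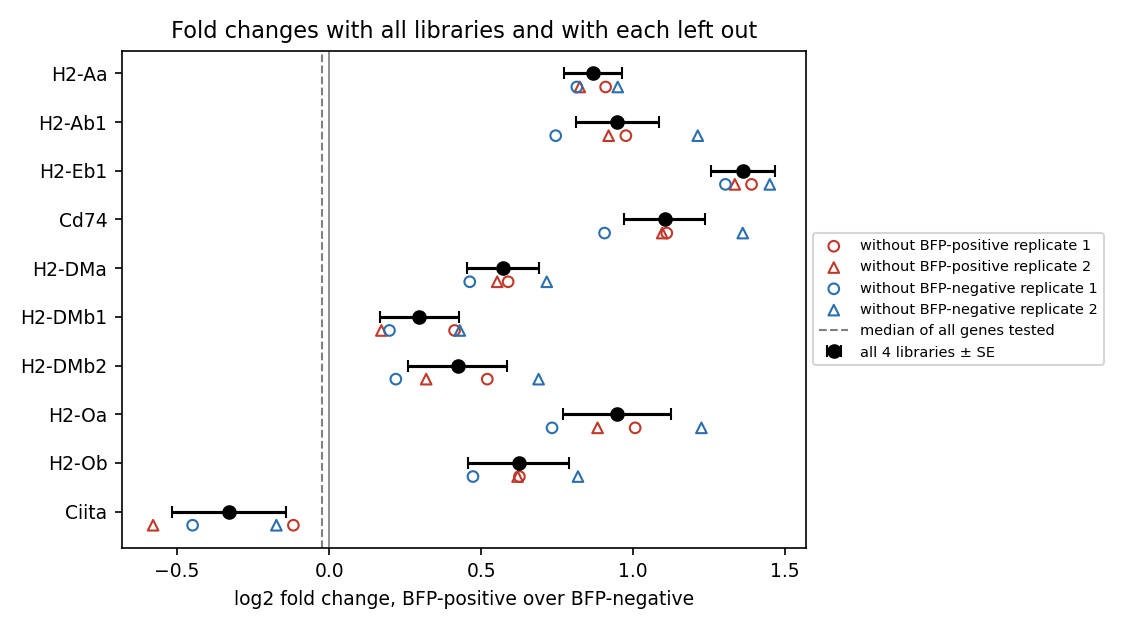
Log2 fold change, BFP-positive over BFP-negative, of the 10 genes: black points with SE bars for all 4 libraries, open marks below them with each library left out, and a dashed line at the median of all genes tested (-0.02). H2-Eb1 is the farthest right at 1.36 and Ciita is the only gene left of 0, at -0.33 with all libraries.

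Ratios between genes that act together were taken in each library. With 2 libraries against 2 the smallest p that a two-sided exact permutation test can give is 0.333, so none of the 4 ratios tested could pass, before or after adjustment. The classical chains summed (H2-Aa, H2-Ab1 and H2-Eb1) had 262 and 199 counts per Ciita count in BFP-positive libraries, against 90.5 and 91.8 in BFP-negative ones. That is a 2.50-fold difference (exact permutation p = 0.333), with the groups well apart. The H2-O genes summed had 0.127 and 0.122 counts per count of the H2-DM genes summed in BFP-positive libraries, against 0.0921 and 0.102 in BFP-negative ones. The ratio of the inhibitor's transcripts to those of its target, averaged on the log scale, was 1.29-fold higher, without overlap (exact permutation p = 0.333).

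The ratios within the classical complex differed less. Cd74 had 0.594 and 0.573 counts per count of the summed classical chains in BFP-positive libraries, against 0.501 and 0.559 in BFP-negative ones (1.10-fold, exact permutation p = 0.333). H2-Aa over H2-Ab1 was 0.763 and 0.778 in BFP-positive libraries, against 0.926 and 0.735 in BFP-negative ones, so the groups overlapped (exact permutation p = 1). The log2 difference in H2-Aa over H2-Ab1 was -0.10 with all libraries and 0.069 without BFP-negative replicate 1.

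**Figure D3:**
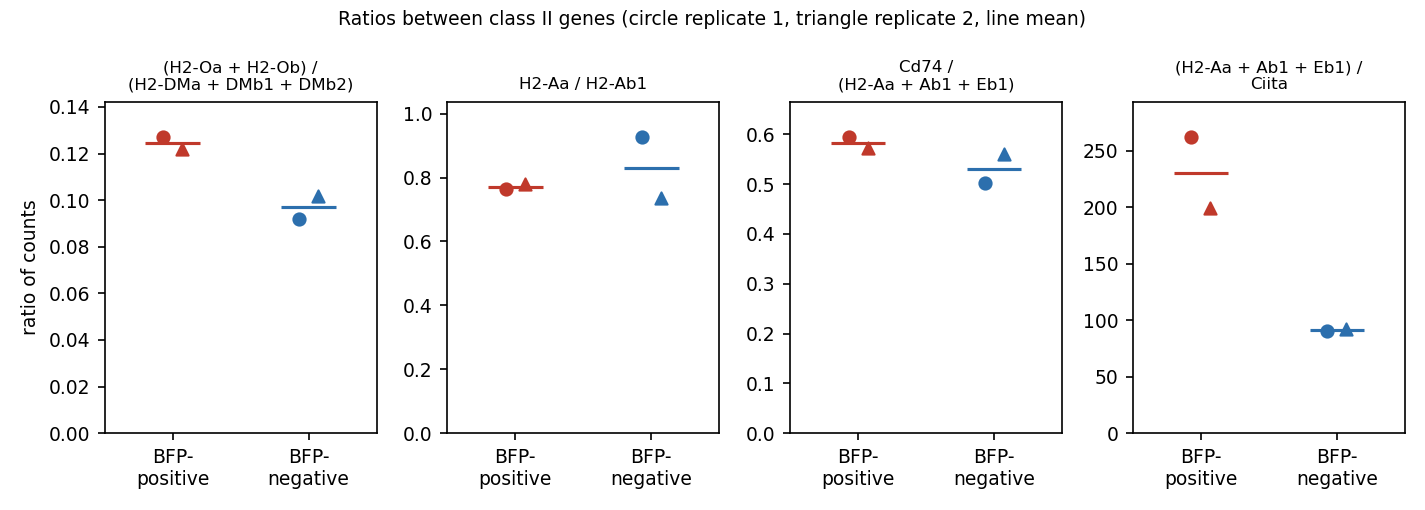
Ratios of raw counts between class II genes in each library (circle replicate 1, triangle replicate 2, line the group mean), each panel on its own linear axis from 0. The classical chains over Ciita stand at 262 and 199 in BFP-positive libraries, against 90.5 and 91.8 in BFP-negative ones, while the BFP-positive points of H2-Aa over H2-Ab1 lie between the BFP-negative ones.

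Levels of different genes were compared per length, with the authors' log2 RPKM values turned back to RPKM. In BFP-positive cells the order of mean RPKM was Cd74, H2-Ab1, H2-Aa, H2-Eb1, H2-DMa, H2-DMb1, H2-DMb2, H2-Oa, H2-Ob and Ciita, and no neighbours overlapped. The range ran from 8793 ± 5.47 RPKM for Cd74 to 16.6 ± 3.61 RPKM for Ciita (SD, n = 2). In BFP-negative cells H2-Ab1, Cd74 and H2-Aa led with means of 4607, 4273 and 4198 RPKM, and neighbours among these 3 overlapped. H2-Eb1 and H2-DMa changed places between the groups. H2-Eb1 was at 2007 ± 39.8 RPKM in BFP-positive and 816 ± 38.0 RPKM in BFP-negative cells. H2-DMa was at 1607 ± 17.2 RPKM in BFP-positive and 1131 ± 112 RPKM in BFP-negative cells. Ranked by RPKM among all genes of the table, Cd74 was 5th in both BFP-positive libraries and 16th and 12th in BFP-negative replicates 1 and 2. H2-Eb1 ranked 41st and 40th in BFP-positive libraries and 155th and 144th in BFP-negative ones.

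Within each group, replicate 2 was higher than replicate 1 for all 10 genes, which holds in both groups at once for 29.0% of all tested genes. The excess in BFP-negative cells was largest for H2-Oa, at 1.39-fold, and smallest for H2-Aa, at 1.09-fold. In BFP-positive cells it ran from 1.00-fold for H2-Ob to 1.38-fold for Ciita. The 10 genes therefore also shared the direction of their difference between libraries of the same sort gate.

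Genes listed as markers of other cell types moved beside the class II genes. Over all tested genes, 7.6% were called higher and 3.51% lower. In bulk RNA a listed gene may come from the pDCs themselves, so its level does not show which cells it came from. Of 11 tested markers of conventional dendritic cells, 4 rose and 1 fell. The summed level of the 13 listed was 543 to 651 CPM in BFP-positive libraries, against 303 to 368 CPM in BFP-negative ones. Flt3 and Itgax, which both rose, made up much of that sum. Flt3 was at 205 and 258 CPM in BFP-positive libraries, against 109 and 126 CPM in BFP-negative ones. Itgax was at 145 and 165 CPM in BFP-positive libraries, against 66.4 and 108 CPM in BFP-negative ones. Zbtb46, a factor of conventional dendritic cells, had 174 and 227 counts in BFP-positive libraries, against 9 and 63 in BFP-negative ones, and rose (log2 fold change 2.56, SE 0.66, edgeR adjusted p = 0.0338). That call was lost without BFP-positive replicate 2 (adjusted p = 0.0579), where 2 of these markers rose in place of 4, and by limma on the authors' log2 RPKM values (adjusted p = 0.0678), by which 1 rose and none fell, and the marker that fell, Cadm1, lost its call when any library but BFP-negative replicate 1 was left out. Itgam, which encodes CD11b, had 112 and 129 counts in BFP-positive libraries, against 22 and 52 in BFP-negative ones (log2 fold change 1.78, SE 0.52, edgeR adjusted p = 0.0546), and passed by DESeq2 and limma-voom (adjusted p = 0.0293 and 0.0419) and, in edgeR, without BFP-negative replicate 2 (2.53, adjusted p = 0.0120). Cd209a and Mgl2, markers of a conventional subset, were at 0 to 0.964 CPM in all libraries. Clec10a, also on this list, had 22 and 95 counts in BFP-positive libraries, against 1 and 20 in BFP-negative ones, and did not pass. Xcr1 had 64 and 84 counts in BFP-positive libraries, against 19 and 22 in BFP-negative ones, and did not pass either. Of 9 tested monocyte and macrophage markers, 5 rose and 2 fell. The sum over 12 genes was 1219 to 1404 CPM in BFP-positive and 607 to 730 CPM in BFP-negative libraries. Ly6c2, which rose, made up the largest part of that sum. It was at 777 and 897 CPM in BFP-positive libraries, against 299 and 379 CPM in BFP-negative ones. The 2 that fell, Adgre1 among them, had log2 fold changes of -1.83 (Adgre1, at 6.69 and 10.2 CPM in BFP-positive libraries, against 24.8 and 35.5 CPM in BFP-negative ones) and -3.40. Csf1r, the receptor that sustains monocytes and macrophages, had 265 and 398 counts in BFP-positive libraries, against 3 and 0 in BFP-negative ones. Mertk and C1qa had no count in any library. C1qb, also on this list, had 65 and 77 counts in BFP-positive libraries, against 146 and 107 in BFP-negative ones, and did not pass.

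B cells are rich in class II, and their markers were lower in sum. Of 6 tested B cell markers 3 fell and none rose, nor was any higher at an unadjusted p under 0.05 by edgeR, DESeq2 or limma-voom, with a sum over 10 genes of 113 to 123 CPM in BFP-positive and 160 to 171 CPM in BFP-negative libraries. Pax5, which sets B cell identity, was at or under 0.804 CPM in all libraries. Not every marker was near 0. Cd79b made up most of the sum in each library and did not pass. It was at 90.2 and 96.7 CPM in BFP-positive libraries, against 90.1 and 96.2 CPM in BFP-negative ones. Of 12 pDC markers 3 rose and 4 fell, but 0 or 1 rose when any 1 library was left out and 1 by limma on the log2 RPKM values, and 2 fell without BFP-positive replicate 2. Their sum was 19424 to 20340 CPM in BFP-positive and 24295 to 28901 CPM in BFP-negative libraries. Ly6d, which fell, made up most of that sum in each library. It was at 13612 and 12571 CPM in BFP-positive libraries, against 17289 and 20947 CPM in BFP-negative ones. The 3 that rose were Siglech, Runx2 and Cd300c. Siglech was at 785 and 820 CPM in BFP-positive libraries, against 611 and 615 CPM in BFP-negative ones. The part of any of these cell types in the class II differences was not tested.

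The machinery around the class II genes was read from 5 lists, beside a background of 7.6% of all tested genes higher and 3.51% lower. Counts at an unadjusted p under 0.05 have no such background here. Of 8 factors that bind class II promoters, no gene was called in either direction by edgeR, DESeq2 or limma-voom, and 1, Rfxank, was higher at an unadjusted p under 0.05 by each of the 3. Rfxank, a subunit of the RFX complex on the X box, was at 46.5 ± 2.01 CPM in BFP-positive and 32.3 ± 3.34 CPM in BFP-negative cells (log2 fold change 0.52, SE 0.20, edgeR adjusted p = 0.138). Rfx5, its DNA-binding partner, was low, at 5.24 and 12.1 CPM in BFP-positive libraries, against 6.67 and 5.99 CPM in BFP-negative ones. Nfyb, a subunit of NF-Y on the Y box, had a log2 fold change of 0.36, SE 0.24. Zxdc, which takes part in class II transcription with Ciita, was at 17.4 ± 2.06 CPM in BFP-positive and 24.9 ± 6.41 CPM in BFP-negative cells (log2 fold change -0.51, SE 0.29, edgeR adjusted p = 0.311).

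Of 10 known regulators of Ciita, 9 were tested, 2 rose and none fell by edgeR, DESeq2 or limma-voom, while at an unadjusted p under 0.05 1 was lower by edgeR and DESeq2 and 2 by limma-voom. Spi1, which encodes the myeloid and B lineage factor PU.1, rose 2.83-fold, at 453 ± 5.81 CPM in BFP-positive and 160 ± 21.7 CPM in BFP-negative cells (edgeR adjusted p = 0.000119). Irf1, which acts on the interferon-gamma-responsive Ciita promoter, rose 1.88-fold, at 187 ± 2.09 CPM in BFP-positive and 99.2 ± 5.78 CPM in BFP-negative cells (edgeR adjusted p = 0.00266). Spib, a relative of PU.1 typical of pDCs and B cells, was at 644 ± 61.2 CPM in BFP-positive and 563 ± 21.8 CPM in BFP-negative cells and did not pass. Tcf4, which sustains pDC identity, was at 185 ± 9.79 CPM in BFP-positive and 229 ± 2.54 CPM in BFP-negative cells (edgeR adjusted p = 0.169). Prdm1, which silences Ciita in plasma cells, was too low to be tested, at 0.601 and 0 CPM in BFP-positive libraries, against 0.723 and 1.89 CPM in BFP-negative ones. Without BFP-positive replicate 1, 4 of these regulators rose, Irf4 and Usf1 joining (adjusted p = 0.0418 and 0.0479).

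Of 9 enzymes of class II antigen processing, 5 rose and none fell, and none was lower at an unadjusted p under 0.05 by edgeR, DESeq2 or limma-voom. Ctsh, an endosomal protease, was at 1509 ± 50.2 CPM in BFP-positive and 536 ± 21.7 CPM in BFP-negative cells (log2 fold change 1.49, SE 0.11, edgeR adjusted p = 2.95e-05). Ctss, which makes the last cut that leaves CLIP, had a log2 fold change of 1.36, the same as H2-Eb1 to 2 decimals. Ctsz had 0.68, SE 0.14 (edgeR adjusted p = 0.0117), a call lost without BFP-positive replicate 2 (adjusted p = 0.0532). Lgmn, an asparaginyl endopeptidase, and Ifi30, a thiol reductase of endosomes, had the larger log2 fold changes of 2.70 and 2.08. Ctsl, which cuts Cd74 in thymic epithelium in place of Ctss, was at 357 ± 17.6 CPM in BFP-positive and 410 ± 37.8 CPM in BFP-negative cells and did not pass.

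Surface class II is removed by the ubiquitin ligase March1, which tags its beta chain, and Cd83 is known to oppose March1. March1 rose, with 289 and 390 counts in BFP-positive libraries, against 54 and 119 in BFP-negative ones (log2 fold change 2.05, SE 0.39, edgeR adjusted p = 0.00751). Cd83 rose beside it, with 1346 and 2001 counts in BFP-positive libraries, against 196 and 317 in BFP-negative ones (log2 fold change 2.78, SE 0.26, edgeR adjusted p = 0.000126). March8, a relative of March1, was at 2.83 and 0.741 CPM in BFP-positive libraries, against 3.62 and 3.55 CPM in BFP-negative ones, and did not pass. Only transcripts were measured, so surface class II is not known from these data.

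**Figure D4:**
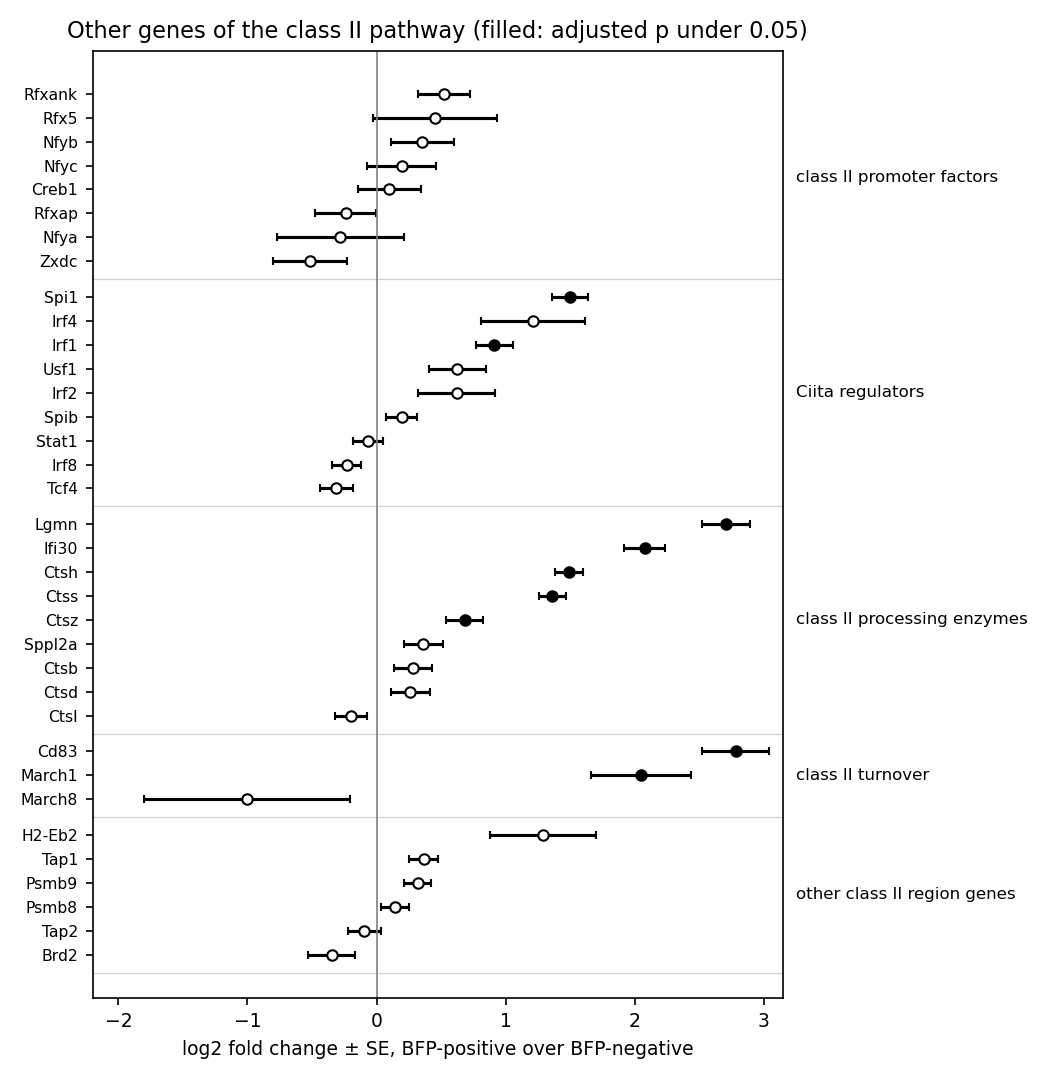
Log2 fold change with SE, BFP-positive over BFP-negative, of the tested genes of the 5 lists around class II, filled where the edgeR adjusted p was under 0.05. Filled points are Spi1 and Irf1 among the Ciita regulators, 5 processing enzymes, and Cd83 and March1, while no promoter factor and no listed other gene of the class II region is filled.

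A list of other genes from the class II region of chromosome 17, not a full census of it, had 6 tested genes. No gene among these was called by edgeR, while 3 were higher at an unadjusted p under 0.05 and DESeq2 and limma-voom each called 2, Psmb9 and Tap1. Tap1, which moves peptides for MHC class I, was at 945 ± 65.7 CPM in BFP-positive and 734 ± 25.4 CPM in BFP-negative cells (log2 fold change 0.36, SE 0.11, edgeR adjusted p = 0.0681). H2-Eb2, a little-used relative of H2-Eb1, was at 12.1 ± 1.49 CPM in BFP-positive and 4.93 ± 1.40 CPM in BFP-negative cells, with a larger but less certain log2 fold change of 1.29, SE 0.41 (edgeR adjusted p = 0.0744). H2-Eb2 passed without BFP-negative replicate 2 (adjusted p = 0.0496). Brd2, whose exons overlap 10.4% of the H2-DMa exon bases on the other strand, was at 48.8 ± 4.50 CPM in BFP-positive and 62.1 ± 1.27 CPM in BFP-negative cells (log2 fold change -0.35, SE 0.18).

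Among 5999 tested genes with a mean of at least 20 CPM, those most like the mean profile of H2-Aa, H2-Ab1, H2-Eb1 and Cd74 over the 4 libraries were Tnfaip8l2, Pnp and Necap1. Likeness was the root mean square difference of log2 CPM centred on each gene's mean, which was 0.0053 for Tnfaip8l2, 0.022 for Pnp and 0.0228 for Necap1. Tnfaip8l2, an inhibitor of immune signalling, had 2305 and 2513 counts in BFP-positive libraries, against 1079 and 1348 in BFP-negative ones. With only 4 libraries many genes come close by this measure.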

How the data were processed

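Bulk RNA-seq was analysed from 4 libraries, 2 of BFP-positive and 2 of BFP-negative pDCs. The labels' protocols name an RNeasy kit for the RNA and a SMART-Seq kit for the cDNA. The authors deposited raw counts per gene, and for each library log2 RPKM values, which are relative to library total and gene length. Subread, featureCounts, limma and the build GRCm38 appear in the submitters' processing notes. Versions, the strand setting and the handling of reads that match several places are not given in the sources used here.

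The filter filterByExpr (minimum count 10, minimum total 15) kept 11706 genes. These were tested in edgeR 4.0.16 under R 4.3.3 by quasi-likelihood F test on the deposited counts, with TMM factors and a model of group alone, which leaves 2 residual degrees of freedom. Tests were two-sided, adjusted after Benjamini and Hochberg over all 11706 genes, and called at 0.05. The biological coefficient of variation was 24.7%. An SE is the size of the log2 fold change over the square root of F. The code was tested on simulated data. Alternatives used DESeq2 1.42.0, limma 3.58.1, other scalings, no filter on low counts, a replicate block and each library left out. Promoter windows come from RefSeq on GRCm38.p6, and exon overlaps and shared stretches from GENCODE on GRCm38.

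All 10 class II genes are named. Of the lists around them the text names the genes called and the 2 with the smallest p, with Rfx5, Spib, Prdm1, Ctss and March1 in any case, and of the markers Itgam, Zbtb46, Csf1r and defining markers near 0, less items that are not reported here. Nfya, Nfyb, Creb1, Tcf4, Irf4, Usf1, Ctsl, March8, Psmb9, Tap2, Brd2, H2-Ea-ps, BC051537, Adgre1 and Cadm1 were chosen after their values were seen. The same holds for Flt3, Itgax, Xcr1, Clec10a, Ly6c2, C1qb, Siglech, Runx2, Cd300c, Ly6d and Cd79b. It also holds for the repeats of the marker counts under the alternatives. The class II genes and the lists were chosen with earlier results of these data known.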

Additional observations from a re-analysis of the deposited data

How the results depend on the processing

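For the 10 class II genes, 120 refits (12 alternatives each) gave no reversed direction, and 111 left the call as it was, while 6 lost one and 3 gained one. H2-Aa, H2-Ab1, H2-Eb1, Cd74 and H2-Oa passed in all 12 and Ciita in none. H2-Ob was not called by limma on the deposited log2 RPKM values (adjusted p = 0.0758). The number of the 10 that rose was 5 to 8 with 1 library left out and 6 with the log2 RPKM values. Of 420 refits of 35 other pathway genes, 400 left the call as it was. The 5 that reversed came from 4 genes that no alternative called, whose log2 fold changes with 1 library left out ran from -0.27 (without BFP-positive replicate 2) to 0.93 for Rfx5, from -0.83 to 0.52 for Nfya (0.12 and 0.52 without BFP-positive replicate 1 and BFP-negative replicate 2), from -0.17 (without BFP-negative replicate 1) to 0.46 for Creb1 and from -0.18 to 0.012 (without BFP-negative replicate 2) for Tap2.

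With 1 library left out, genes higher in BFP-positive cells numbered 547 (without BFP-positive replicate 2) to 926, against 890 with all. Genes lower numbered 220 (without BFP-positive replicate 1) to 409, with 272 without BFP-positive replicate 2, against 411 with all. Where a group is left with 1 library, that library is assumed to vary like the others. The Ciita regulators that rose numbered 2 to 4, and other genes of the class II region 0 to 1, against 2 by DESeq2 and by limma-voom. The log2 difference of H2-Aa over H2-Ab1 ran from -0.26 to 0.069. The cause of these changes was not tested.

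Same-numbered libraries share a number and a title code whose meaning the labels do not give. The deviations of same-numbered libraries from their group means had a correlation of 0.0594 over genes. With the replicate number as a block, 1140 genes were higher and 760 lower among all tested genes, against 890 and 411 without it. In that fit 4 Ciita regulators and 2 other genes of the class II region rose. So did 9 of the 10 class II genes, H2-DMb1 and H2-DMb2 being added (edgeR adjusted p = 0.0220 and 0.0131).

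With 2 libraries a group, a difference that missed the threshold, such as those of the H2-DM beta chains and Ciita, is not shown to be absent, and the limit given for a count of 0 covers counting error alone.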
